A study of Mus musculus with 9 samples.

Results

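The ligands, receptors and latency proteins of transforming growth factor beta (TGF-beta) were followed across 3 mouse stromal cell lines. The genes were the ligands Tgfb1, Tgfb2 and Tgfb3, the receptors Tgfbr1, Tgfbr2 and Tgfbr3, the latency proteins Ltbp1, Ltbp2 and Ltbp3, and the induced matrix protein gene Tgfbi. They were found by symbol: every probe set, the group of short oligonucleotides that reads 1 transcript, was taken if the platform annotation gave it exactly 1 gene symbol and that symbol was one of these 10. This gave 20 probe sets for 10 of the 15964 genes with such a probe set. AGM-s3-A9 is a line from the embryonic aorta-gonad-mesonephros (AGM) region that supports hematopoiesis, AGM-s3-A7, the non-supportive line, comes from the same region and does not, and OP9, from the calvaria of newborn mice, is supportive. No treatment is named for any line in the labels. Each line gave 1 RNA hybridisation on every one of 3 Affymetrix array types with different probe sets (MG-U74A, MG-U74B and MG-U74C), 9 arrays in all, so no difference below has replicate error or a p-value and each describes these arrays.

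TGF-beta ligands are secreted in an inactive form. The mature dimer stays bound to its own propeptide, and latent TGF-beta binding proteins (LTBPs) couple this complex to the extracellular matrix until integrins or proteases release the ligand. The ligand then binds the type II receptor, encoded by Tgfbr2, which recruits and phosphorylates the type I receptor, encoded by Tgfbr1, and the type I receptor activates SMAD transcription factors. Betaglycan, encoded by Tgfbr3, is a co-receptor that presents ligand and is needed most for the product of Tgfb2. In hematopoietic tissue TGF-beta is known as a restraint on stem cell proliferation, and stromal cells are among its sources.

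The start regions of 4 of these genes are shown because Tgfbi, Tgfbr2 and Tgfb2 are among the genes past 2-fold below, and Tgfb1 is the ligand with the opposite order of lines to Tgfb2. Each sequence is the 250 bases before the RefSeq transcription start in build GRCm38.p6, read 5′ to 3′ on the gene's strand. Capitals mark matches to any of 4 motifs, searched on both strands. The SMAD box, bound by activated SMAD proteins, was spelled CAGACA. The GC box, bound by Sp1 and common in promoters without a TATA box, was spelled GGGCGG. The site of the AP-1 factors was spelled TGACTCA. The TATA box, which places the start of transcription, was spelled TATAAA. No match of 1 motif overlapped another in these windows.
Tgfbi promoter, chr13:56609336-56609585, plus strand: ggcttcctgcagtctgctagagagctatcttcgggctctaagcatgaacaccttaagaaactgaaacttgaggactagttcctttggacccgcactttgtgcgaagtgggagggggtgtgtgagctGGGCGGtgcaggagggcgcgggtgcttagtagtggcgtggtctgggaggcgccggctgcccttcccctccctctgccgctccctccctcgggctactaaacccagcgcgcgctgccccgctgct
Tgfbr2 promoter, chr9:116175364-116175613, minus strand: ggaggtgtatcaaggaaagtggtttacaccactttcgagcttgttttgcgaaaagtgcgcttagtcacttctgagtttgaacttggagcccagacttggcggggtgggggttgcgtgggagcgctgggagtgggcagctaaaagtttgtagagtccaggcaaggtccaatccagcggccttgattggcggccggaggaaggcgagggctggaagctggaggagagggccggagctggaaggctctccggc
Tgfb1 promoter, chr7:25686752-25687001, plus strand: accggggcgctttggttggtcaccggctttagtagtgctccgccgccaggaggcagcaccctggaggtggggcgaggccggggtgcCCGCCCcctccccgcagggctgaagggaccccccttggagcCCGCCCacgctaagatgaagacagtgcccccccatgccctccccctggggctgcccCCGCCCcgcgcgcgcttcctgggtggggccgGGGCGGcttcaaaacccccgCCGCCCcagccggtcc
Tgfb2 promoter, chr1:186705990-186706239, minus strand: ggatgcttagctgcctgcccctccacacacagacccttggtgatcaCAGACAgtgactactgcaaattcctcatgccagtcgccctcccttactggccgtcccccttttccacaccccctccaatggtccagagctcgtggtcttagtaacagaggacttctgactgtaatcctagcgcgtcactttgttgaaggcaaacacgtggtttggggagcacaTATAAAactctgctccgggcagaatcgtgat

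The promoter of Tgfb1 held 5 GC boxes in a window of 75.2% G and C. The Tgfb2 window, at 53.6% G and C, held no GC box but a TATA box that begins 31 bases before the start and a SMAD box that begins 204 bases before it. For Tgfbi the window held 1 GC box, 124 bases before the start, and for Tgfbr2 it held none of the 4 motifs. Over all 32851 windows of the same length in the RefSeq table, 32.7% held a GC box, 17.1% a SMAD box, 12.4% a TATA box and 4.46% an AP-1 site, and the median content of G and C was 52.4%. Windows were matched for 8 of the 10 genes, the others being Tgfb3 and Tgfbr3. These matches describe letters in a window and were not related to the intensities.

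Values are normalized intensities, in arbitrary units. As deposited, arrays of the same type differed in scale (their 2% trimmed means differed by up to 61.1% on MG-U74A), so the log2 values were given equal distributions within each array type by quantile normalization. Signal was taken as detected above a level set per array type (49.0 for MG-U74A, 52.8 for MG-U74B, 61.5 for MG-U74C), and a ratio against a line at or below the level is given as "at least N-fold". The error of a ratio could be judged only from different probe sets of 1 gene, on the same or on different array types. On the same array type, the 2 brightest probe sets of a gene detected in both lines were compared, once per gene and array type. For 95% of these comparisons the log2 ratios of both lay within 0.97 of each other for the AGM lines (1160 comparisons, a factor of 1.96). The limit was 0.99 for OP9 and the non-supportive line (1134 comparisons, 1.99) and 1.02 for AGM-s3-A9 against OP9 (1128 comparisons, 2.03). On different array types, which are separate hybridisations, the same limits were factors of 1.95 (975 genes), 2.14 (922 genes) and 2.25 (928 genes). A ratio of at least 2-fold was called a difference, and smaller ones are given as values; a call under these factors lies within the spread between array types. This spread does not cover separate cultures. Levels of different probe sets are not on 1 scale and are not compared. Of the stromal markers, 6 of 7 were above the level in at least 1 line, and their summed level was 17320 and 17330 in the AGM lines (AGM-s3-A9 first) and 9178 in OP9. This sum runs over the same probe sets in every line, is made up mostly of the collagens Col1a1, Col1a2 and Col3a1, and gives no comparison between genes. Vim was below the level in all lines, Thy1 was at 4.61 in OP9, and Pdgfra read 1187 in AGM-s3-A9, 1720.1 in the non-supportive line and 1377 in OP9. The endothelial markers were below it throughout (0 of 4), as were 5 of 6 hematopoietic ones, with Ptprc, the gene for the pan-leukocyte antigen, between 0.90 and 2.31. Of the hematopoietic list Cd14 was detected, at 298 to 503, and of 3 epithelial markers Cdh1 and Epcam were, at 84.5 to 126. The part of these markers in the results was not tested. A lower transcript level in a whole culture can mean fewer expressing cells or less RNA per cell, which cannot be told apart here.

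All 10 genes were detected in at least 1 line, by 13 of their 20 probe sets. The other 7 probe sets, 1 each of Tgfb3, Tgfbr1, Tgfbr2, Ltbp3 and Tgfbi and 2 of Ltbp1, read between 0.84 and 23.1 in every line, below the level. Of the 13 detected probe sets 7 were brightest in OP9, 4 in AGM-s3-A9 and 2 in AGM-s3-A7, so the order of lines differed between probe sets. Of the 7 brightest in OP9, 4 read the single gene Tgfbr3, so this count gives OP9 no lead by gene. No share over all probe sets is given for it.

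**Figure D1:**
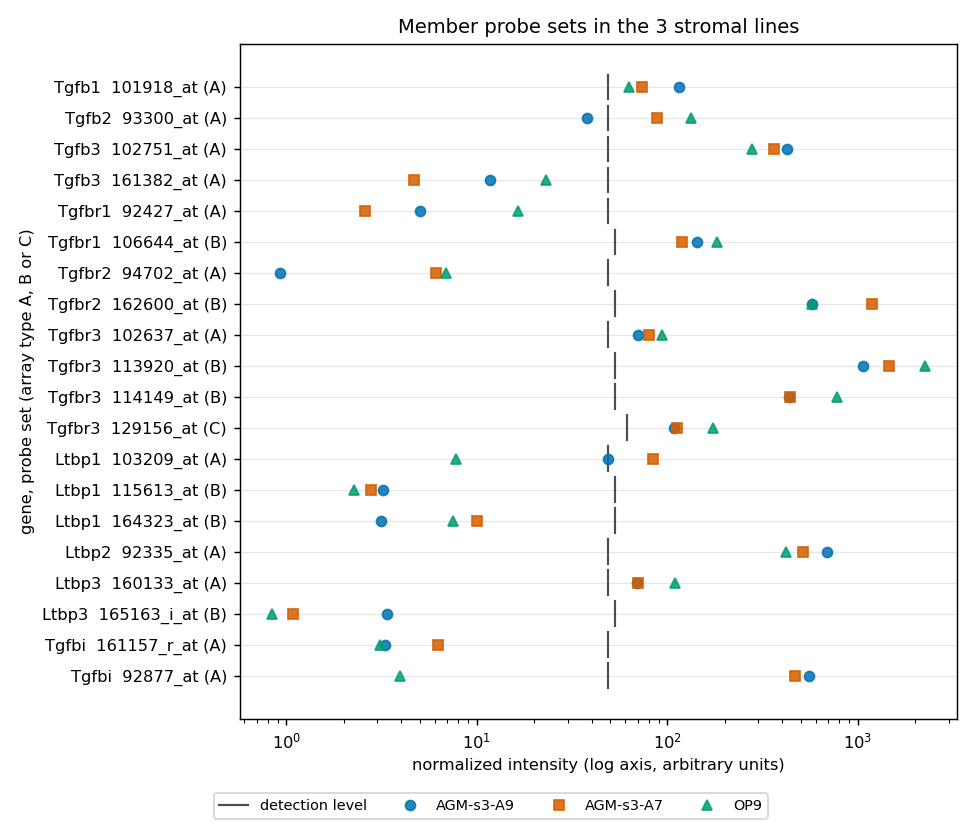
Normalized intensity (log axis, arbitrary units) of all 20 probe sets in AGM-s3-A9 (circles), AGM-s3-A7 (squares) and OP9 (triangles), 1 array per point, with the detection level of the array type as a vertical tick. Tgfbi falls from 552 and 466 in the AGM lines to 3.93 in OP9, and the 7 probe sets left of the ticks were detected in no line.

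Among the ligands, Tgfb1, whose product is the form most studied in blood and immune cells, read 114 in AGM-s3-A9, 73.9 in the non-supportive line and 63.0 in OP9. AGM-s3-A9 was highest, by 1.55-fold over the non-supportive line and 1.82-fold over OP9, and no neighbours in this order differed by 2-fold. Tgfb3, a ligand of mesenchymal and palatal development, read 426 in AGM-s3-A9, 363 in the non-supportive line and 277 in OP9 on its detected probe set. Its order was the same as that of Tgfb1, with AGM-s3-A9 at 1.17-fold over the non-supportive line and 1.54-fold over OP9, both within the spread between probe sets. Tgfb2, the ligand that depends on betaglycan, had the reverse order, with 37.6 in AGM-s3-A9, 88.7 in the non-supportive line and 133 in OP9. In AGM-s3-A9 it was below the detection level of 49.0, and OP9 was at least 2.71-fold and the non-supportive line at least 1.81-fold higher. OP9 exceeded the non-supportive line by 0.58 on the log2 scale for Tgfb2. Between the supportive lines, the ligand transcripts thus lay in opposite order: Tgfb1 and Tgfb3 were higher in AGM-s3-A9, within the spread, and Tgfb2 was higher in OP9, past 2-fold.

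The AGM-s3-A9 array of MG-U74A was brighter as deposited, with a median of 64.5 against 42.7 and 42.8 in the other lines, and this bears on the size of these ratios. Without normalization Tgfb1 read 158, 62.0 and 55.4 in AGM-s3-A9, the non-supportive line and OP9, a log2 ratio of 1.35 against the non-supportive line and 1.52 against OP9, in place of 0.63 and 0.86. Scaled to the spiked hybridization controls, the log2 ratios of Tgfb1 were 1.06 and 1.08, so the 2-fold limit was passed under these settings and missed after quantile normalization. For Tgfb3 the log2 ratio of AGM-s3-A9 against OP9 was 1.27 as deposited in place of 0.62, and for AGM-s3-A9 against the non-supportive line it was 0.96 in place of 0.23. The ratio of Tgfb2 between AGM-s3-A9 and OP9 stayed past 2-fold in 7 of 8 settings. The exception was a detection level at the 75th percentile (171 on MG-U74A), under which Tgfb1 and Tgfb2 were detected in no line.

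Of the receptors, Tgfbr2, the ligand-binding type II receptor gene, gave the difference shared by both supportive lines. Its detected probe set, on MG-U74B, read 573 in AGM-s3-A9, 1192 in the non-supportive line and 571 in OP9. The non-supportive line was the single high one, 2.08-fold above AGM-s3-A9 and 2.09-fold above OP9, while the supportive lines differed by a factor of 1.004. Both comparisons use the same array of the non-supportive line, so they are not independent. The log2 ratios, -1.06 and -1.06, lay just past the spread between probe sets of the same array type, 0.97 and 0.99. Against the spread between array types, 0.96 and 1.10, the ratio for AGM-s3-A9 lay past it and that for OP9 within it. With hybridization control scaling they were -0.95 and -0.82, and as deposited -1.45 and -0.83, so that the 2-fold limit was kept in 7 of 8 settings for AGM-s3-A9 and in 6 of 8 for OP9. The other Tgfbr2 probe set, on MG-U74A, gave no second measurement, at 0.92 in AGM-s3-A9, 6.11 in the non-supportive line and 6.91 in OP9.

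Tgfbr1, the gene for the type I receptor kinase, read 143 in AGM-s3-A9, 120 in the non-supportive line and 182 in OP9 on MG-U74B. OP9 was highest, by 1.53-fold over the non-supportive line and 1.28-fold over AGM-s3-A9, and no line differed from another by 2-fold. Its probe set on MG-U74A was below the level, at 2.59 to 16.5.

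Tgfbr3, the betaglycan gene, was read by 4 detected probe sets on all 3 array types, that is in 3 separate hybridisations of each line. One probe set on MG-U74B read 1068 in AGM-s3-A9, 1460 in the non-supportive line and 2245 in OP9, and the other on the same arrays read 432, 438 and 773. The MG-U74A probe set read 70.5, 80.4 and 93.3 in the same order of lines, and the MG-U74C probe set 109, 112 and 174. OP9 was the highest line on each of the 4 probe sets. The log2 ratio of OP9 against the non-supportive line was 0.21 for the MG-U74A probe set, 0.62 and 0.82 for the MG-U74B pair and 0.64 for MG-U74C, a mean of 0.57 ± 0.26 (SD over 4 probe sets, which are not replicate cultures). AGM-s3-A9 lay below OP9 by a mean of -0.75 ± 0.28 (SD, 4 probe sets), and 1 of the 4, the first of the MG-U74B pair, passed 2-fold, at 2.10-fold, which is within the factor of 2.25 between array types. That call was lost with 75th percentile scaling (log2 ratio -0.82), trimmed mean scaling (-0.86) and hybridization control scaling (-0.95). Without normalization the direction turned on 2 of the 4: as deposited, the MG-U74A probe set read higher in AGM-s3-A9 than in OP9 (log2 ratio 0.20) and the MG-U74C probe set lower in OP9 than in the non-supportive line (-0.07). Between the AGM lines the ratios were small, from -0.45 to -0.02, a mean of -0.18 ± 0.20 (SD, 4 probe sets).

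**Figure D2:**
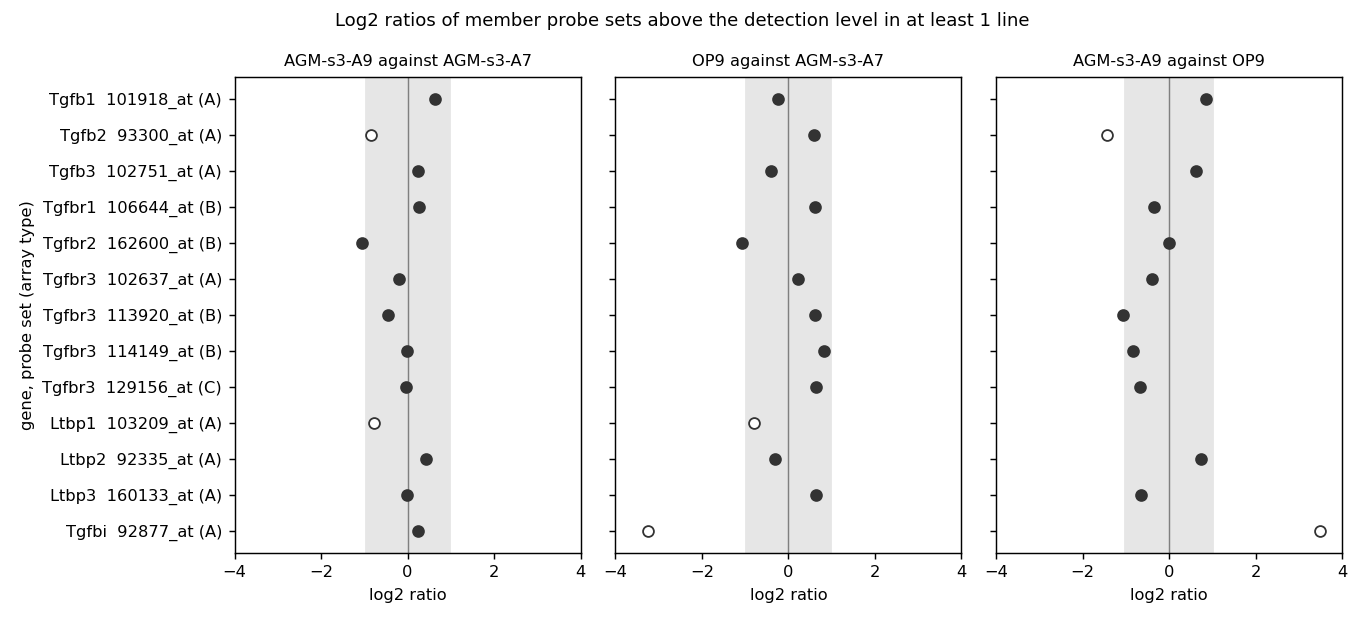
Log2 ratio of the 13 detected probe sets in each pair of lines, with open symbols where 1 line was at or below the detection level and grey bands covering 95% of the differences between probe sets of 1 gene on the same array type; points with both lines below the level are left out. Outside the bands lie Tgfbr2 (-1.06 against the non-supportive line in both supportive lines), Tgfbi in OP9, and Tgfb2 and 1 of 4 Tgfbr3 probe sets between AGM-s3-A9 and OP9.

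None of the latency protein genes was called in any pair. Over all detected probe sets 2.04% to 5.72% were called, by pair and direction, so the lack of a call does not set these genes apart. Ltbp2, which encodes a binding protein of elastic microfibrils that does not itself bind latent TGF-beta, read 690 in AGM-s3-A9, 514 in the non-supportive line and 417 in OP9. AGM-s3-A9 was highest, by 1.34-fold over the non-supportive line and 1.65-fold over OP9, and neither ratio passed 2-fold after normalization. As deposited, its log2 ratio was 1.15 for AGM-s3-A9 against the non-supportive line and 1.37 against OP9. Ltbp3, a partner of latent TGF-beta in bone, read 69.4 in AGM-s3-A9, 70.3 in the non-supportive line and 109 in OP9. OP9 was 1.55-fold above the non-supportive line and 1.58-fold above AGM-s3-A9, within the spread. As deposited Ltbp3 read 93.3 in AGM-s3-A9, 59.2 in the non-supportive line and 96.0 in OP9. The ratio between the supportive lines thus depends on the scaling. Ltbp1, the most widely studied matrix anchor of latent TGF-beta, read 48.9 in AGM-s3-A9, 84.5 in the non-supportive line and 7.74 in OP9. It was detected in the non-supportive line alone, at least 1.72-fold above the other lines, with AGM-s3-A9 just under the level of 49.0. As deposited Ltbp1 read 64.4 in AGM-s3-A9 and 70.2 in the non-supportive line, so its absence above the level in AGM-s3-A9 depends on the scaling. Its other 2 probe sets, on MG-U74B, read between 2.25 and 10.03.

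Tgfbi encodes a secreted matrix protein, induced by TGF-beta, that binds collagens and integrins. On MG-U74A its detected probe set read 552 in AGM-s3-A9, 466 in the non-supportive line and 3.93 in OP9, and 750, 385 and 3.62 as deposited. Both AGM lines were high, within 1.19-fold of each other, and OP9 was at least 9.51-fold below the non-supportive line and at least 11.3-fold below AGM-s3-A9. It was past 2-fold in both pairs in all 8 settings, with log2 ratios of OP9 against the non-supportive line from -3.26 to -1.45. The smallest was given by a detection level at the 75th percentile, which raises the value set for OP9. The other Tgfbi probe set was below the level in all lines, at 3.09 to 6.28.

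**Figure D3:**
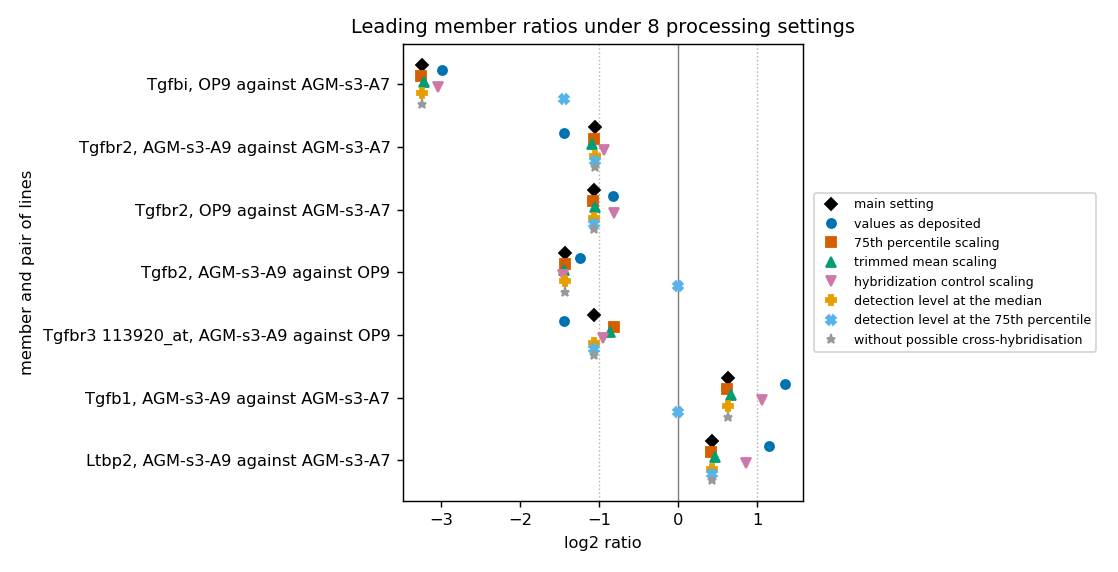
Log2 ratios of leading comparisons under 8 processing settings (symbols), with dotted lines at 2-fold. Tgfbi stays left of -1 in every setting, Tgfbr2 moves between -1.45 and -0.82 around the line, and Tgfb1 lies between 0 and 1.35 and Ltbp2 between 0.42 and 1.15.

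Counted over probe sets, AGM-s3-A9 was at least 2-fold higher than the non-supportive line on 0 and lower on 1 of the 13 detected (Tgfbr2); of all 14000 probe sets detected in at least 1 line, 2.71% were higher and 2.04% lower. OP9 was higher than the non-supportive line on 0 and lower on 2 (Tgfbi and Tgfbr2), against 4.59% and 5.31% of all detected probe sets. AGM-s3-A9 was higher than OP9 on 1 (Tgfbi) and lower on 2 (Tgfb2 and 1 probe set of Tgfbr3), against 5.72% and 4.44%. Counts of 0 to 2 in 13 do not set these genes apart from the rest of the arrays. The comparisons share lines in pairs, so that 1 array enters several counts.

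The other genes of the pathway were taken from a list of 81 genes grouped by role, of which 76 had a probe set and 67 were detected; the brightest probe set stood for each gene. AGM-s3-A9 was at least 2-fold higher than the non-supportive line for 4 and lower for 4 of the 67 (2.93% and 2.15% of all 8989 detected genes), and the median log2 ratio was 0.003 against 0.0 over all genes. OP9 was higher than the non-supportive line for 5 and lower for 15 (4.96% and 5.75% of all genes), with a median of -0.27 against 0.02. AGM-s3-A9 was higher than OP9 for 17 and lower for 6 (6.33% and 4.87% of all genes), with a median of 0.17 against -0.01. The OP9 arrays enter both of the latter counts. The list was written with earlier results of these data known, so these counts are no independent test of the pathway. As deposited, the count higher in AGM-s3-A9 than in the non-supportive line was 15 in place of 4.

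Downstream of the receptors, the SMAD genes Smad2, Smad3 and Smad4, which encode the signal carriers, were detected and stayed below 2-fold. Each differed by at most 1.41-fold between any lines (3 of 3 detected, 0 past 2-fold). Over all detected genes 2.15% to 6.33% passed 2-fold, by pair and direction, so 0 of 3 does not set these genes apart. For the 13 detected inhibitors, the median log2 ratio of OP9 against the non-supportive line was 0.06, against 0.02 over all genes. In OP9, 1 inhibitor was higher and 3 were lower than in the non-supportive line (4.96% and 5.75% of all genes). The 3 were Pmepa1, a TGF-beta-induced inhibitor of SMAD signalling (501 in AGM-s3-A9, 621 in the non-supportive line and 93.0 in OP9, 6.68-fold lower), and the proteoglycan genes Fmod (1184, 837 and 9.06, at least 17.1-fold lower) and Dcn (196, 1349 and 21.2, at least 27.5-fold lower), whose proteins bind TGF-beta. Dcn was also 6.89-fold lower in AGM-s3-A9, the 1 inhibitor past 2-fold between the AGM lines (2.15% of all genes were lower). Strap, which encodes a receptor-associated inhibitor, was the 1 higher, at 328, 282 and 917 in the same order of lines. Tgif1, a corepressor gene, read 282 in AGM-s3-A9 against 723 in OP9, a 2.56-fold difference.

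Among 21 detected genes known to respond to TGF-beta, 6 were at least 2-fold lower and 4 higher in OP9 than in the non-supportive line. Over all detected genes 5.75% were lower and 4.96% higher. The median log2 ratio of the 21 genes was -0.47, against 0.02 over all genes. Cnn1, the calponin gene, read 599 in AGM-s3-A9, 700.3 in the non-supportive line and 3.23 in OP9. It was at least 14.3-fold lower in OP9 than in the non-supportive line. This rests on 1 probe set, of a type with possible cross-hybridisation. With such probe sets left out, 13 other pathway genes were at least 2-fold lower in OP9 than in the non-supportive line (main 15). The collagen gene Col3a1 was 5.97-fold lower, the smooth muscle actin gene Acta2 4.58-fold, Tagln, encoding the actin-binding protein transgelin, 3.80-fold and the protease inhibitor gene Timp1 3.58-fold. Sphk1 was 2.41-fold lower, on a probe set of a type with possible cross-hybridisation. Timp3, another inhibitor of metalloproteinases, went the other way, at 119, 231 and 663, or 2.87-fold higher in OP9. Also higher in OP9 were Snai2 (2.26-fold), Tsc22d1 (2.15-fold, on 1 of 2 detected probe sets) and Cdkn2b (at least 2.05-fold). Tgfbi was low in the same line as these 6 lower genes, while 4 responsive genes were higher there. Whether these differences have a common cause was not tested. Between the AGM lines 1 responsive gene was higher and 2 were lower in AGM-s3-A9 (2.93% and 2.15% of all genes). Their median was -0.11 over the 21 genes, against 0.0 over all genes.

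In the matrix storage group, 7 genes were detected. Fbln1, the fibulin-1 gene, read 1433 in AGM-s3-A9, 1302 in the non-supportive line and 161 in OP9, 8.10-fold lower in OP9, and Lrrc32, whose product tethers latent TGF-beta at the cell surface, was 2.69-fold lower. Fbn2, a fibrillin gene, read 360, 80.1 and 15.2. It was 4.49-fold higher in AGM-s3-A9 than in the non-supportive line, a difference called on 3 of 4 detected probe sets. The probe sets shown for Fbln1 and Fbn2 are of types with possible cross-hybridisation. Emilin1, whose product limits TGF-beta maturation, was 3.06-fold higher in AGM-s3-A9 than in OP9. Of the 7, 1 was higher in AGM-s3-A9 and 2 were lower in OP9 than in the non-supportive line (2.93% and 5.75% of all genes). Against OP9, 3 were higher in AGM-s3-A9 (6.33% of all genes). The group had a median log2 ratio of -0.70 for OP9 and -0.20 for AGM-s3-A9, each against the non-supportive line. Over all genes the medians were 0.02 and 0.0.

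Of 7 detected activators of the latent complex, the integrin subunit genes Itgav, Itgb1 and Itgb5 and the protease genes Mmp14 and Furin did not pass 2-fold in any pair. Mmp9, the gelatinase B gene, read 562 in AGM-s3-A9, 116 in the non-supportive line and 16.6 in OP9, so that AGM-s3-A9 lay 4.83-fold above the non-supportive line and OP9 at least 2.37-fold below it. Bmp1, the gene of a protease that cleaves LTBPs and procollagens, was 3.81-fold lower in OP9 on 1 of 2 detected probe sets. Of the 7, 1 was higher in AGM-s3-A9 and 2 were lower in OP9 than in the non-supportive line (2.93% and 5.75% of all genes). Against OP9, 2 were higher in AGM-s3-A9 (6.33% of all genes). The group's median log2 ratio was -0.49 for OP9 and -0.02 for AGM-s3-A9, each against the non-supportive line. Over all genes these medians were 0.02 and 0.0. Of 4 detected co-receptor genes 1 passed 2-fold: Acvrl1, the type I receptor of endothelial cells, was 2.45-fold lower in OP9 than in the non-supportive line, on 1 of 4 probe sets. This Acvrl1 probe set is of a type with possible cross-hybridisation. Over all genes 5.75% were lower in this pair. In the activin branch, 12 genes were detected. In AGM-s3-A9, 1 was higher and 1 lower than in the non-supportive line (2.93% and 2.15% of all genes). In OP9, 1 was lower than in the non-supportive line (5.75% of all genes). Inhbb, an activin subunit gene, read 1.77, 111 and 0.62 and was below the level in both supportive lines. The non-supportive line was at least 2.26-fold above them. Fstl1 was 2.39-fold higher in AGM-s3-A9 than in the non-supportive line.

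**Figure D4:**
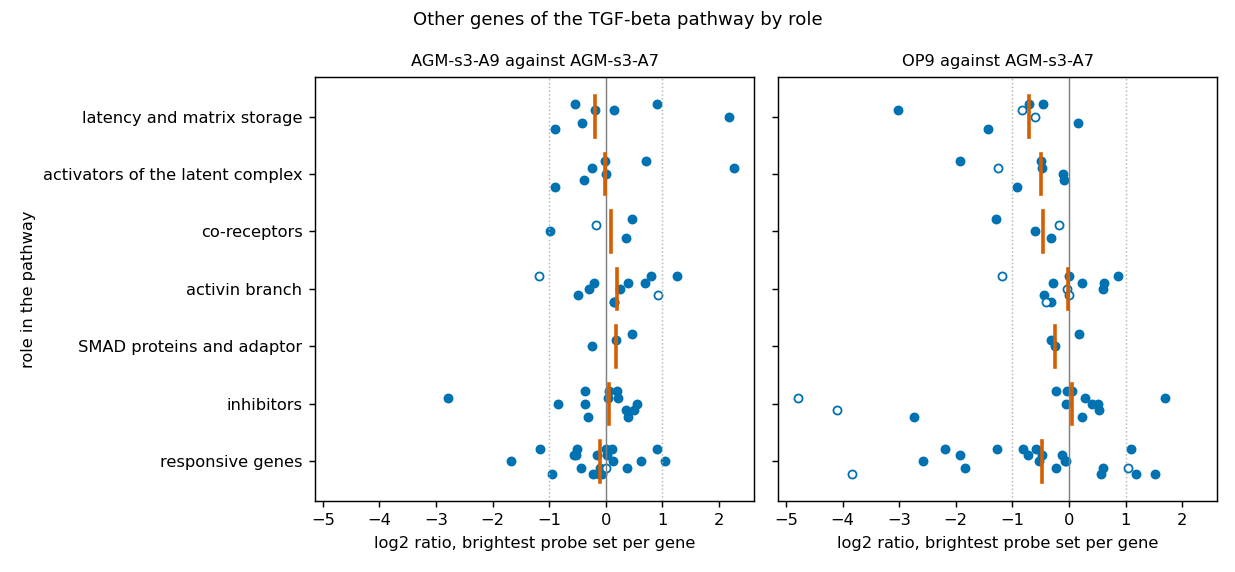
Log2 ratios of the 67 other detected pathway genes by role for AGM-s3-A9 and for OP9, each against the non-supportive line (points, 1 gene each; open where 1 or both lines were at or below the level), with the median of each role as a bar and dotted lines at 2-fold. Between the AGM lines 8 genes lie on or beyond the dotted lines, and for OP9 20 do, 15 of them on the left.

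For the 3 members with the widest range over the lines, the genes with the most similar profile on the same array type were named by the distance between centred log2 values at 3 points, the lines. Values at or below the detection level were raised to it first, which holds for Tgfbi in OP9 and Tgfb2 in AGM-s3-A9, so for these members the genes have no order and no distance is given. Near Tgfbi among 4842 genes were Plat, the tissue plasminogen activator gene (755 in AGM-s3-A9, 640 in the non-supportive line and 61.6 in OP9), the transcription factor gene Zic1 (442, 410 and 2.33) and Fbln1. Near Tgfb2 were Btg1, Clcn3 and Ldah. For Tgfbr3, which was above the level in all lines, only its brightest probe set was used. Nearest to this probe set were Exosc1, Gsk3b and Slc25a46 among 3165 genes of MG-U74B (distance 0.03 each). The other detected Tgfbr3 probe sets had another profile, with log2 ratios of AGM-s3-A9 against OP9 from -0.84 to -0.41 in place of -1.07. How many genes lie this close was not counted, and with 3 points the likeness is a description only.

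By position, 2 of the genes are neighbours at some distance: Ltbp2 and Tgfb3 both lie on chromosome 12 in GRCm38.p6, with 19 protein-coding genes between them. Both had the order AGM-s3-A9, the non-supportive line, OP9 from high to low. The 11 detected genes between them had a median log2 ratio of 0.03 for AGM-s3-A9 against the non-supportive line (from -0.70 to 1.51) and of 0.51 for OP9 against the non-supportive line (from -0.20 to 1.501). Over the 281 detected genes of chromosome 12 counted for Tgfb3, these medians were -0.18 and 0.11. The remaining members lie on 8 different chromosomes.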

How the data were processed

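The 9 arrays were 1 per line and array type. The values are linear intensities deposited by the authors, 1 per probe set; their scanner software, summarisation and scaling: not given in the sources used here. Deposited intensities were log2-transformed and quantile-normalized within each array type. The detection level is the higher of 2 values, the array type's median normalized intensity and the 95th percentile of 34 control probe sets without a target (antisense, unspiked bacterial and yeast). Lower values were raised to it before ratios were formed, and a ratio of at least 2-fold was called. The number of arrays limits the precision.

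Symbols came from the platform annotation: of 36701 probe sets that are no controls, 29131 had 1 symbol, 724 several and 6846 none, and 0 symbols differed from RefSeq (GRCm38.p6) where the gene identifier matched (99.7%). Named pathway genes are those past 2-fold in any pair, up to the 6 largest of each role. Itgav, Itgb1, Itgb5, Mmp14, Furin, Smad2, Smad3 and Smad4, below it, were named after their values were seen. So were the responsive genes Snai2, Tsc22d1, Cdkn2b and Sphk1, past 2-fold, to complete the counts for OP9. The members and gene lists were chosen with earlier results of these data known. The steps were tested on simulated data for MG-U74A only, with bright probe sets, changes larger than 2-fold and little added noise. This does not cover ratios near 2-fold or values near the detection level. Alternatives were no normalization, scaling to the 75th percentile, trimmed mean or hybridization controls, a detection level at the median or 75th percentile, leaving out probe sets of possible cross-hybridisation and, for pathway genes, the median over probe sets. Python 3.11.15, numpy 2.4.6 and pandas 2.3.3 were used.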

Additional observations from a re-analysis of the deposited data

How the results depend on the processing

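Of 273 recomputed log2 ratios of the detected members (39 ratios under 7 alternatives), 243 stayed within the robust SD between probe sets of the main value (0.43 to 0.46), 30 moved by more and 0 called ratios changed sign. The moves came from the values as deposited (16), a detection level at the 75th percentile (11) and hybridization control scaling (3). As deposited, the median of all probe sets shifts by 0.58 on MG-U74A between AGM-s3-A9 and AGM-s3-A7, and by -0.29 (MG-U74B) and -0.49 (MG-U74C) on the others. In this setting AGM-s3-A9 was at least 2-fold higher than AGM-s3-A7 on 2 member probe sets (main 0) and 15 other pathway genes (main 4), OP9 was higher than AGM-s3-A7 on 1 member probe set (main 0) and lower on 1 (main 2), and AGM-s3-A9 was higher than OP9 on 4 (main 1) and lower for 1 other pathway gene (main 6). With hybridization control scaling AGM-s3-A9 was higher than AGM-s3-A7 on 1 member probe set and 8 other pathway genes and lower on 0 (main 1), OP9 was higher on 1 and lower on 1, and AGM-s3-A9 was higher than OP9 on 2 and lower on 1 (main 2). Scaling to the 75th percentile or to the trimmed mean, and a detection level at the 75th percentile, each left 1 member probe set lower in AGM-s3-A9 than in OP9. All other counts of called probe sets and genes, under these and the remaining alternatives, stayed within 1.5 times the main count. The cause of the moves was not tested. No array could be left out, since each line has 1 per array type. Members near the detection level (Tgfb1, Tgfb2, Ltbp1, Ltbp3 and Tgfbr3 on MG-U74A) are limited by signal over background.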
